A study of Mus musculus with 18 samples.

Results

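Kruppel-like factors are zinc finger proteins that bind GC-rich and CACCC sequences in promoters and switch genes on or off there. Members chosen by symbol were Klf2, Klf3, Klf4, Klf5, Klf6, Klf9, Klf10, Klf11, Klf13 and Klf15, which makes 10 of the 24419 gene symbols in the expression table. RNA of the heart was sequenced from 18 male C57BL/6 mice aged 8 weeks, in 6 groups of 3 mice. Control mice, which the study describes as sham-operated, were compared with mice taken 10 min, 1 h, 6 h, 24 h or 72 h after the proximal left anterior descending coronary artery had been tied off, so that the heart muscle behind it lost its blood supply. Sodium pentobarbital at 50 mg/kg was the anaesthetic, no group carried an engineered allele, and the labelled tissue was the infarcted left ventricle. FPKM (fragments per kilobase of transcript, scaled to the mapped fragments of the library) is the unit of every level here, so levels of different genes compare per length.

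In heart and vessel the family divides the work between cell types. KLF2 and KLF4 are induced in endothelial cells by blood flow and switch on genes that keep the vessel wall open and free of clots. KLF6 is known as an early response factor of injured tissue and is abundant in myeloid cells. KLF10 and KLF11 were first described as genes induced by TGF-beta, and KLF9 and KLF15 are induced by glucocorticoid hormone, with KLF15 controlling amino acid, glucose and lipid use in cardiac muscle. KLF3, which recruits CtBP, and KLF13 are best known as regulators of fat and blood cells.

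Of the 10 members, 9 passed the filter of an FPKM of 1 in some mouse and were tested beside 13333 genes in all, and Klf5 did not pass. A log2 fold change is the difference between 2 groups in mean log2(FPKM + 1) and is followed by ± its standard error from limma. A gene is called when its limma p, adjusted over all genes tested, is under 0.05. The FPKM of a mouse summed to 542418 to 600467, and depth estimated from the lowest values ran from 0.818 to 1.31 relative to the first Control mouse. The 72 h mice had the lowest sums (560482, 542418 and 554453) and relative depths of 1.31, 1.31 and 1.24, at the top of the range. Only 24 h replicate 2, also at 1.24, was as high as any of them. The 8 cardiomyocyte markers, none at 0, summed to between 55765 and 59296 FPKM in Control, which fits heart muscle but does not tell ventricle from atrium. Atrial cardiomyocyte markers (4 genes) summed to between 207 and 486 FPKM in Control and between 256 and 945 FPKM at 6 h. The highest sum over the 18 mice was at 24 h, where they ran from 1551 to 2275 FPKM. There 1 of the 4 was called higher (26.2% of all genes), with a median log2 fold change of 0.15, and 1 was at 0 in all 3 mice. The sum thus does not stand for the whole list, and the part of the dissection in it was not tested. Composition changed with time. Macrophage markers (7 genes) summed to between 185 and 216 FPKM in Control and between 1808 and 2315 FPKM at 72 h. Replicate 1 of 6 h and replicate 3 of 24 h stood apart from their groups, with neutrophil markers (6 genes) summing to 1001 FPKM beside 117 and 377, and to 996 FPKM beside 216 and 45.2. The erythroid list of 4 genes ranged from 29.8 to 2385 FPKM over the 18 mice. The RNA came from whole tissue, so that fewer cells of a type and less RNA per cell cannot be told apart.

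The promoters of Klf2, Klf4, Klf9 and Klf15 are shown first. All 4 had their highest mean at 1 h, as did Klf3 and Klf13, and their lowest at 72 h. Klf2 and Klf4 are taken as a pair since both were called higher at 1 h, as was Klf6, whose promoter is not printed. Klf9 and Klf15 are the other pair, with the largest falls at 72 h. Each sequence is the 250 bases before the RefSeq start of the gene, written 5′ to 3′ on the strand of the gene, from build GRCm38.p6. Capitals mark matches, on either strand, to the MEF2 box, to TGACG (part of the site bound by CREB and ATF factors) and to CACGTG (the E-box bound by the clock proteins CLOCK and ARNTL). The regions are chr8:72318812-72319061 on the plus strand for Klf2, chr4:55532476-55532725 on the minus strand for Klf4, chr19:23140976-23141225 on the plus strand for Klf9 and chr6:90462326-90462575 on the plus strand for Klf15.
Klf2: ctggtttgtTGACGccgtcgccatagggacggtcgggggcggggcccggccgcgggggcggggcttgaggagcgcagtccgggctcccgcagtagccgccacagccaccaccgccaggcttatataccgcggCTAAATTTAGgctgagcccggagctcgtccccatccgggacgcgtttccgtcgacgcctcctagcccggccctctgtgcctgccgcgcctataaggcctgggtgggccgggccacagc
Klf4: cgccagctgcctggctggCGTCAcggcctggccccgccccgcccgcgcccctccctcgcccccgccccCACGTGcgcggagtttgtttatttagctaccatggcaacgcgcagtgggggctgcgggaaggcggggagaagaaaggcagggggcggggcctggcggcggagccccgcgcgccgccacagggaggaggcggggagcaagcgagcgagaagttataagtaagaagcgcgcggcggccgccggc
Klf9: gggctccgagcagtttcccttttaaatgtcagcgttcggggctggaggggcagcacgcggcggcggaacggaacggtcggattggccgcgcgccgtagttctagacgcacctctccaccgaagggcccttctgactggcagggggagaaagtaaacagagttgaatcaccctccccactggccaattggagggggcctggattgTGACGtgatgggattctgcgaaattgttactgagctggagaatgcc
Klf15: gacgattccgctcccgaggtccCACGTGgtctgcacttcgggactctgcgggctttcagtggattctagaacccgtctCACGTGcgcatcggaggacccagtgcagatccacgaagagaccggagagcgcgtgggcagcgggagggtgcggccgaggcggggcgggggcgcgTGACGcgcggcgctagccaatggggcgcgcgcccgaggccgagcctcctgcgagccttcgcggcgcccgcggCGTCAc
RefSeq entries were matched for 8 of the 10 members, all but Klf5 and Klf10. The RefSeq starts of Klf2, Klf3, Klf6 and Klf11 lie inside the gene as GENCODE places it, so those stretches end within it. A MEF2 box stood in 1 of the 8 promoters, that of Klf2, from 118 to 109 bases before the start, where it reads CTAAATTTAG on both strands. Such a box was present in 2.92% of 32851 mouse promoters of the same length. CACGTG was found in the promoters of Klf4, Klf6, Klf11 and Klf15, at 2 positions in that of Klf15, and in 6.02% of all promoters. TGACG was found in Klf2, Klf4, Klf9, Klf13 and Klf15, and in 17.8% of all promoters. The GC box GGGCGG, a site of the Sp and Kruppel-like factors themselves, stood in 7 of 8 promoters (32.7% of all), the CACCC box in 5 of 8 (52.01% of all) and the CCAAT box in 5 of 8 (33.8% of all). The 8 promoters had a GC content of 59.6% to 78.4%, and the median over all promoters was 52.4%. No match to TATAAA, to the serum response element known as the CArG box or to TGTTCT, a core of the glucocorticoid response element, stood in the 8 promoters, and these letters are in 12.4%, 1.47% and 16.1% of all promoters. Matches to CCAAT overlap each other in Klf9 and those to GGGCGG in Klf4 and Klf11, and CACCC overlaps GGGCGG in Klf3 and Klf13, while no capital stretch overlaps another.

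In Control hearts Klf6 and Klf9 had the highest levels of the family, with mean FPKM of 69.7 ± 1.17 and 69.2 ± 10.8 (SD, n = 3 mice). Klf2 followed at 45.1 ± 9.59, Klf4 at 36.8 ± 5.37, Klf13 at 23.6 ± 1.7, Klf15 at 23 ± 2.77, Klf3 at 8.59 ± 1.54, Klf10 at 2.89 ± 0.674 and Klf11 at 2.1 ± 0.171 FPKM. Neighbours in this order whose mice overlapped were Klf6 and Klf9, Klf2 and Klf4, Klf13 and Klf15, and Klf10 and Klf11. Klf6 lay at the 91.2 percentile of all genes tested by Control level, and Klf11 at the 24.5 percentile. The order changed after ligation. Klf2 had the highest mean at 1 h, though its mice overlapped those of Klf6, and at 72 h Klf6 led without overlap. Klf15 stood below Klf3 and Klf10 at 72 h, without overlap with Klf10.

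**Figure D1:**
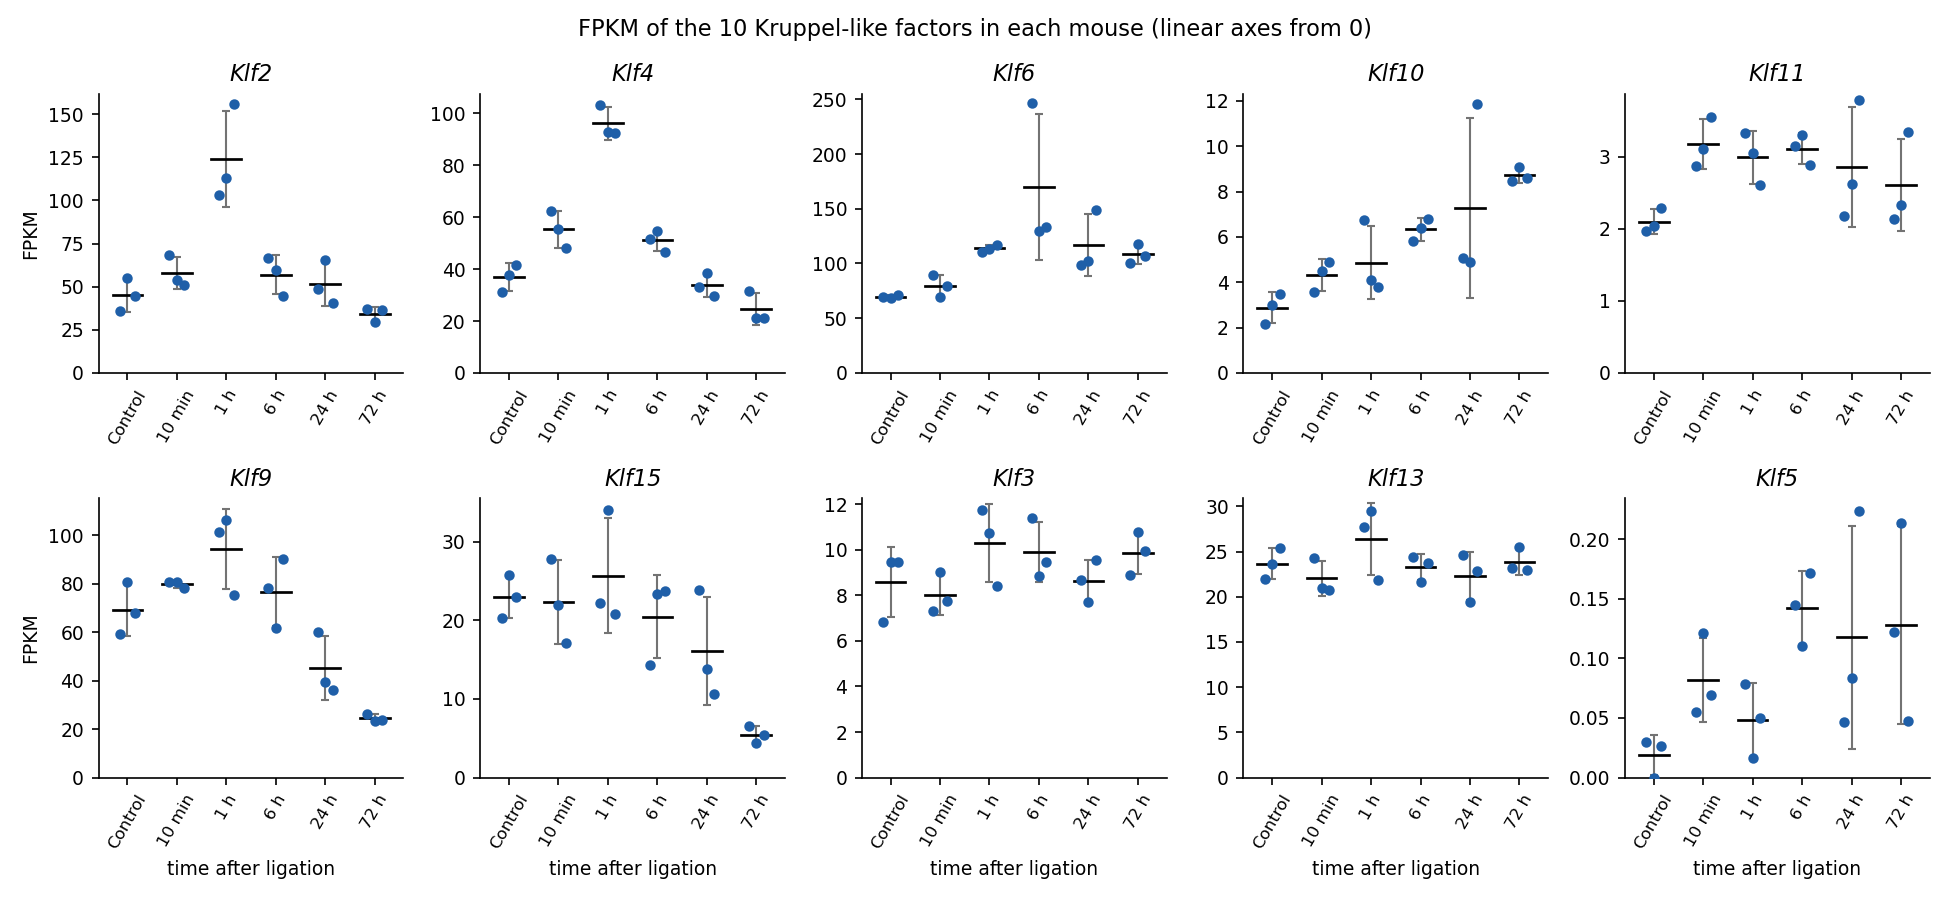
FPKM of each of the 10 Kruppel-like factors (1 panel each, linear axes that start at 0) in each of 18 mice, by group; points are mice, lines are means and bars are SD (n = 3). Klf2, Klf4, Klf9 and Klf15 have their highest mean at 1 h and their lowest at 72 h, and Klf3 and Klf13 also have their highest at 1 h. Klf6 is highest at 6 h with 1 mouse at 246 FPKM, Klf10 has its highest mean at 72 h, and Klf5 stays at or under 0.223 FPKM.

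Against Control, the members called at 1 h and 6 h were all higher, and members called lower appeared at 24 h and 72 h. The 24 h fall was that of Klf9 alone (limma adjusted p = 0.0491), a call lost under several alternatives given below. At 10 min 0 of the 9 tested members were called by limma in either direction, where 0.248% of all genes tested were called higher and 0.0978% lower, and 3 members had an unadjusted p under 0.05, as did 1955 of the 13297 genes tested. At 1 h 3 members were called higher and 0 lower (all genes, 0.669% higher and 0.0526% lower). The 6 h mice gave 4 higher and 0 lower (11.6% and 16.8% of all genes), and the 24 h mice 2 higher and 1 lower (26.2% and 11.4%). By 72 h 2 were called higher and 3 lower (53.1% and 24.2% of all genes). With median-of-ratios scaling the 72 h counts were 2 higher and 5 lower, and with quantile normalization 2 higher and 6 lower, while at 24 h both gave 1 higher and 1 lower. The share of members called higher was above that of all genes at 1 h and 6 h, and not at the other times. Called lower, 1 of 9 members at 24 h was near the 11.4% of all genes, and 3 of 9 at 72 h stood beside 24.2%. The members were chosen with earlier results of these data known, so these shares are a description and not a test of the family.

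Counts of members whose ligated mice all lay above the Control mice were 3, 5, 4, 2 and 2 of 9 from the first time to the last, against 12.2%, 7.41%, 18.6%, 39.3% and 55.1% of all genes. Those whose mice all lay below Control at 72 h numbered 2 of 9 (25.4% of all genes). Between consecutive times, 2 members were called higher and 0 lower from 10 min to 1 h (0.391% and 0.211% of all genes). From 1 h to 6 h 0 were higher and 2 lower (9.32% and 11.2%), from 6 h to 24 h 0 and 1 (12.5% and 1.94%), and from 24 h to 72 h 0 and 3 (29.7% and 13.5%). Every change between consecutive times called from 1 h on was a fall. The 9 members had median log2 fold changes against Control of 0.21, 0.43, 0.33, 0.017 and 0.013, and all genes tested 0.017, -0.015, -0.083, 0.13 and 0.29.

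Scaling moved the later comparisons. Median-of-ratios scaling shifted the median of all genes by -0.11 at 24 h and by -0.25 at 72 h, and quantile normalization by -0.19 and -0.41. Of the genes called at 72 h, 68.7% were higher on FPKM as deposited, 52.5% after median-of-ratios scaling and 42.5% after quantile normalization, and for 24 h the shares were 69.8%, 52.2% and 43.6%. For 6 h they were 40.9%, 56.6% and 43.5%. Relative to the median of all genes, the 72 h values were -2.20 for Klf15, -1.74 for Klf9, -0.87 for Klf4, -0.65 for Klf2, -0.28 for Klf13, 0.34 for Klf6 and 1.05 for Klf10.

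**Figure D2:**
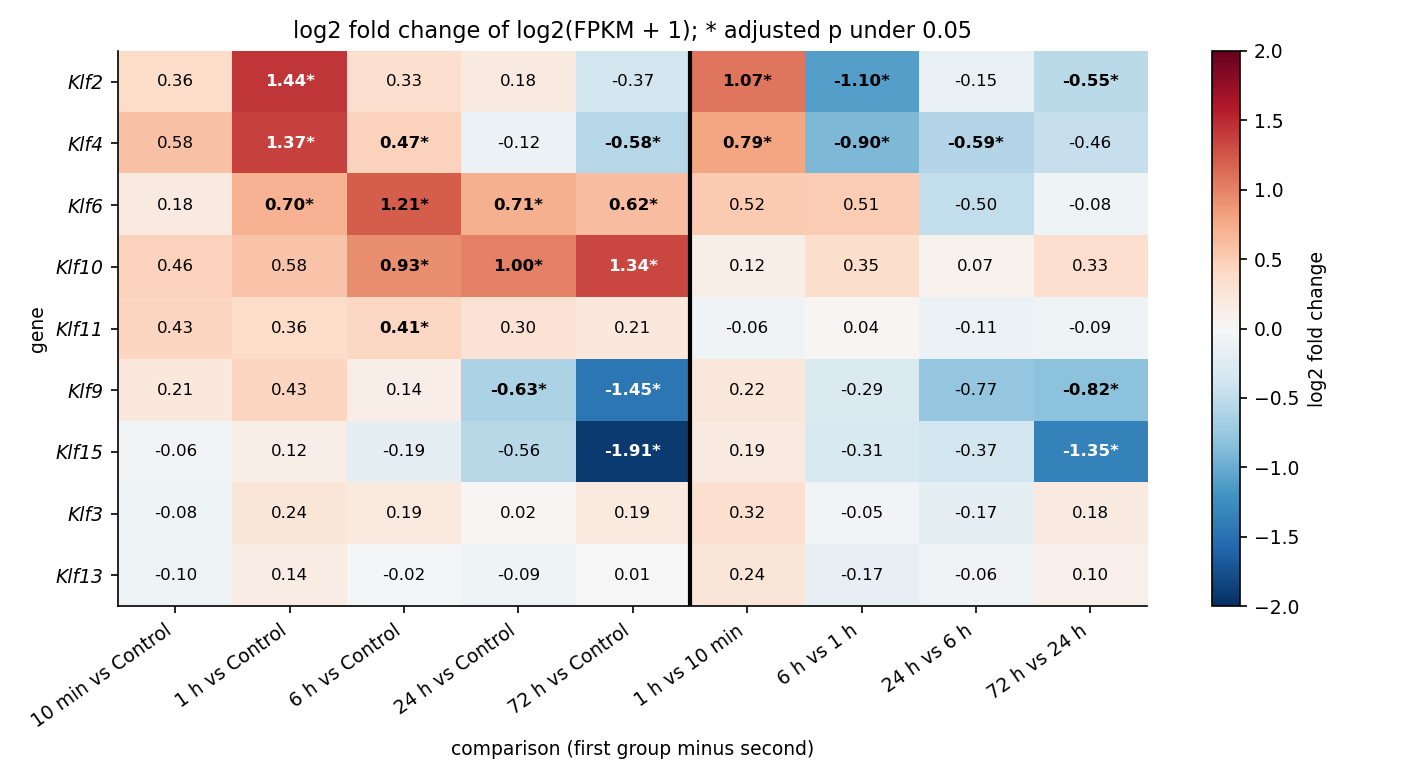
Log2 fold change of each tested member (rows) in each comparison (columns; against Control on the left, between consecutive times on the right), on the log2(FPKM + 1) scale, with a star for an adjusted p under 0.05. The 3 stars at 1 h are all rises, from 0.70 to 1.44, and the 3 falls with a star at 72 h run from -0.58 to -1.91.

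Klf2 and Klf4 rose together within 1 h and fell again by 6 h. Klf2, on chromosome 8 from 72319033 to 72321656 (plus strand) of mm10 in GENCODE release M21, had 35.8, 55 and 44.5 FPKM in the 3 Control mice and 68.3, 54.1 and 51.2 FPKM 10 min after ligation. By 1 h it had reached 103, 113 and 156 FPKM, and all of these mice lay above all Control and 10 min mice. The 6 h mice had 66.7, 59.7 and 44.7 FPKM, those of 24 h 48.4, 65.3 and 40.6 and those of 72 h 37, 29.8 and 36.6, all groups that overlapped Control. Mean FPKM at 1 h was 2.75 times that of Control (log2 fold change 1.44 ± 0.19, adjusted p = 0.0157, higher in 3 of 3 mice). The change from 10 min to 1 h was 1.07 ± 0.16 (adjusted p = 0.0409) and that from 1 h to 6 h -1.10 ± 0.19 (adjusted p = 0.0104). Klf2 fell once more between 24 h and 72 h (-0.55 ± 0.18, adjusted p = 0.0452), and against Control its 72 h value was -0.37 ± 0.15 (adjusted p = 0.0509), called with median-of-ratios scaling (-0.67, adjusted p = 0.00428).

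The call of Klf2 at 1 h was lost without Control replicate 3 (adjusted p = 0.0787), without 1 h replicate 2 (0.0572) and without a filter on low FPKM (0.0651). That of 1 h against 10 min was lost without 10 min replicate 2 (0.138) or 3 (0.167) and without 1 h replicate 1 (0.0570) or 2 (0.114), and also without the filter (0.121) or without a variance trend (0.0624). That of 72 h against 24 h was lost without 24 h replicate 1 (0.0889) or 2 (0.103) and without any 1 of the 72 h mice (0.0776 to 0.149), without the filter (0.0723) and with FPKM rescaled to a common sum (0.0618).

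Klf4 had the same peak. On chromosome 4 from 55527143 to 55532466 (minus strand), it had 31.1, 37.7 and 41.7 FPKM in Control mice, 62.4, 55.6 and 48.2 FPKM after 10 min and 103, 92.7 and 92.3 FPKM after 1 h. The 6 h mice still had 51.7, 54.8 and 46.7 FPKM, and at each of these first 3 times all ligated mice lay above all Control mice. The 24 h mice had 33.3, 38.5 and 29.6 FPKM and those of 72 h 31.6, 21 and 21.2, both overlapping Control. Mean FPKM at 1 h was 2.61 times that of Control (log2 fold change 1.37 ± 0.10, adjusted p = 0.000663), and this call held under every alternative run. The 10 min value was 0.58 ± 0.12 (adjusted p = 0.110), the rise of 6 h 0.47 ± 0.12 (0.0263) and the fall of 72 h -0.58 ± 0.16 (0.0110). Between consecutive times Klf4 rose from 10 min to 1 h (0.79 ± 0.097, adjusted p = 0.0168), fell to 6 h (-0.90 ± 0.090, 0.00193) and fell further to 24 h (-0.59 ± 0.13, 0.0330). The call of 6 h against Control was lost without Control replicate 1 (adjusted p = 0.0818) or 2 (0.0738) and without 6 h replicate 1 (0.0563) or 2 (0.0596). That of 1 h against 10 min was lost without 10 min replicate 2 (0.0639) and without 1 h replicate 1 (0.0657) or 2 (0.0668) and without the filter (0.0580), and that of 24 h against 6 h without any 1 of the 6 mice (0.0532 to 0.113).

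Endothelial markers did not move with this peak. The 8 genes, none at 0, summed to between 688 and 795 FPKM in Control and between 714 and 746 FPKM at 1 h, when 0 of them were called in either direction. Per 1000 FPKM of these markers, Klf2 had 50.2, 79.9 and 56 FPKM in Control mice and 138, 158 and 217 in 1 h mice. Klf4 had 43.5, 54.8 and 52.5 and then 139, 129.8 and 129 on this scale. Both ratios were higher at 1 h in 3 of 3 mice without overlap. In the 72 h mice the ratio was 42.9, 26.1 and 32 for Klf4, all below Control, and 50.1, 36.9 and 55.3 for Klf2, overlapping Control. Immediate early genes, most of them transcription factors induced within minutes of a stimulus, were also high at 1 h. Of 12, 5 were called higher at 10 min and 12 at 1 h, and 11 rose between these times. They were still called at later times, 12 of them higher at 6 h, 12 at 24 h and 10 at 72 h (medians of 2.2, 1.29 and 1.40). At 72 h 9 were higher and 1 lower with median-of-ratios scaling. The share of all genes called higher grew as well, from 0.248% at 10 min and 0.669% at 1 h to 11.6%, 26.2% and 53.1% at the later times. Between 10 min and 1 h it was 0.391%. Fos, a subunit of the factor AP-1, went from a mean of 0.53 FPKM in Control to 67 FPKM at 1 h (log2 fold change 5.45 ± 0.18, adjusted p = 1.01e-05).

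The route upstream of both genes and the genes they activate were not called in the first hour. MEF2 factors bind boxes like that in the Klf2 promoter after the kinases MAP3K2 or MAP3K3, MEK5 (Map2k5) and ERK5 (Mapk7) have acted. Of these 8 genes, 7 were tested and 0 were called at 10 min or 1 h. Map2k5, Mef2a and Mef2c fell at 6 h, with log2 fold changes of -0.47, -0.46 and -0.45 (adjusted p = 0.0191, 0.00952 and 0.0203). By 72 h 3 were called higher and 3 lower, among them Mapk7 with a mean of 15.1 FPKM against 4.88 in Control (1.46 ± 0.079, adjusted p = 6.08e-07). The counts were 3 and 4 with median-of-ratios scaling, and 1 and 4 with quantile normalization. Of all genes 16.8% were called lower at 6 h, and 53.1% higher and 24.2% lower at 72 h. Among endothelial genes that KLF2 and KLF4 activate, 0 of 5 were called at 10 min or 1 h, with a median of -0.15 at 1 h. S1pr1, the receptor for sphingosine 1-phosphate, rose at 6 h from a mean of 29.7 to 55.5 FPKM (0.85 ± 0.17, adjusted p = 0.0120), and Tek, the angiopoietin receptor, fell from 78.6 to 54.3 FPKM (-0.53 ± 0.090, adjusted p = 0.00667). All 5 were called lower at 72 h on each of the 3 scalings, where 24.2% of all genes were on FPKM as deposited. Ptgds, the prostaglandin D2 synthase, went from 75.1 to 23.7 FPKM (-1.63 ± 0.12), and Thbd, the anticoagulant thrombomodulin, from 20.3 to 9.7 FPKM (-0.99 ± 0.071). Of the endothelial markers 1 was called higher and 3 lower at 72 h, and 6 lower with median-of-ratios scaling, and their part in these falls was not tested.

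**Figure D3:**
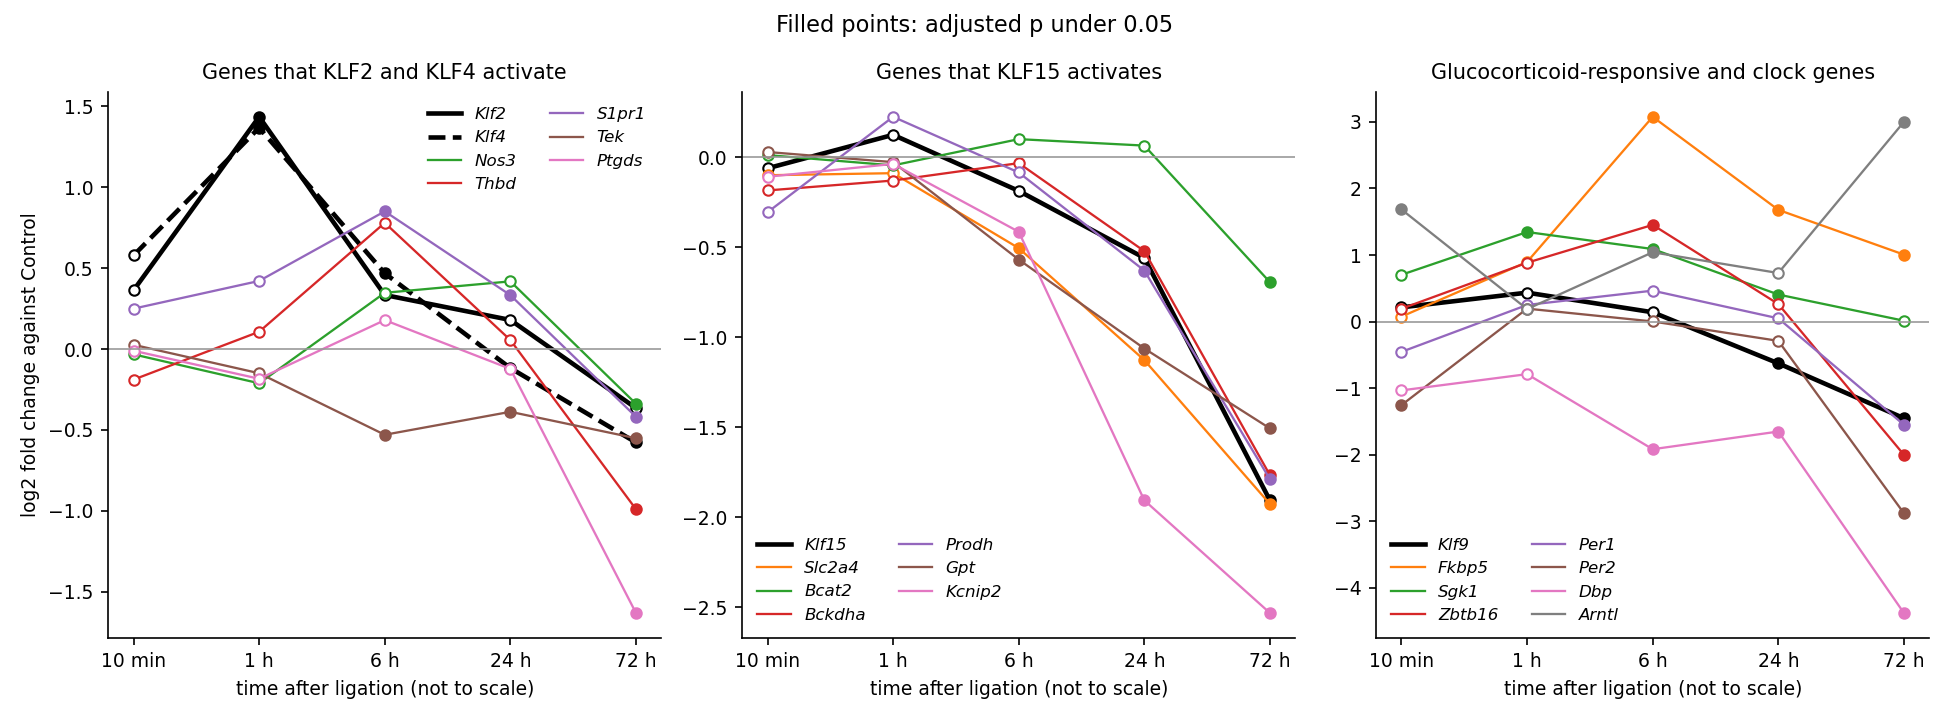
Log2 fold change against Control at each time (x axis not to scale) of members and of genes of the lists tied to them; filled points have an adjusted p under 0.05. Klf2 and Klf4 peak at 1 h while the genes they activate have no filled point there, Klf15 and the 6 genes it activates are low at 72 h, and Arntl and Dbp lie at 3.0 and -4.38 at 72 h.

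Klf6 was higher than Control from 1 h to 72 h. On chromosome 13 from 5861482 to 5870394 (plus strand), it had 69.4, 68.7 and 71 FPKM in Control mice, 89.8, 69.4 and 79.2 FPKM after 10 min and 111, 114 and 117 FPKM after 1 h. By 6 h it stood at 246, 129.8 and 133 FPKM, by 24 h at 98.7, 102 and 149 and in the 72 h mice at 100.3, 117 and 107. From 1 h on, all ligated mice lay above all Control mice. The rise was 0.70 ± 0.044 at 1 h (adjusted p = 0.000224), 1.21 ± 0.23 in 6 h mice (0.00995), 0.71 ± 0.16 in 24 h mice (0.0161) and 0.62 ± 0.072 in 72 h mice (5.86e-05). In 1 fit of all 18 mice the 1 h call was lost (adjusted p = 0.376), and that of 24 h was lost without Control replicate 1, 2 or 3 (0.0635, 0.0619 and 0.0553).

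The highest Klf6 values came from the mice with many neutrophil transcripts, 6 h replicate 1 with 246 FPKM and 24 h replicate 3 with 149 FPKM. Without them the log2 fold changes were 0.91 and 0.52, both still called. Leukocyte markers (5 genes, none at 0) summed to between 17.4 and 21.6 FPKM in Control, between 20.4 and 24.2 at 1 h, between 28.3 and 80.7 in 6 h mice and between 325 and 351 in 72 h mice. At 1 h 0 of the 5 were called, and by 72 h 5 were called higher (53.1% of all genes). Neutrophil markers summed to between 2.56 and 5.28 FPKM in Control and between 17.1 and 30.5 at 1 h, with 2 of 6 called higher (0.669% of all genes). Per 1000 FPKM of leukocyte markers, Klf6 ranged from 3288 to 3944 in Control, 4836 to 5431 at 1 h and 305 to 351 at 72 h, so that it lay above Control at the first of these times and below it at the last. The part of the leukocytes in the levels of Klf6 was not tested.

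Klf10 and Klf11, the members named for their induction by TGF-beta, were the lowest tested members in Control. Klf10, on chromosome 15 from 38291463 to 38300706 (minus strand), had 2.16, 3.0 and 3.5 FPKM in Control mice, 3.57, 4.48 and 4.91 FPKM after 10 min and 6.74, 4.08 and 3.78 FPKM after 1 h. Levels 6 h after ligation were 5.8, 6.4 and 6.79 FPKM, those of 24 h 5.07, 4.88 and 11.8 and those of 72 h 8.46, 9.09 and 8.62. All ligated mice lay above all Control mice at each of the 5 times. Klf10 rose in 6 h mice (0.93 ± 0.14, adjusted p = 0.00501), in 24 h mice (1.0 ± 0.31, 0.0422) and in 72 h mice (1.34 ± 0.13, 1.59e-05), where its mean was 3.02 times that of Control. The 10 min and 1 h values were 0.46 ± 0.15 and 0.58 ± 0.20 (adjusted p = 0.240 and 0.332). The highest 24 h value, 11.8 FPKM, was that of the neutrophil-rich mouse, and without it the rise was 0.64 and called. The 24 h call was lost without the filter (adjusted p = 0.0764), with median-of-ratios scaling (0.0548), with quantile normalization (0.0730) and without Control replicate 1 (0.134), 2 (0.104) or 3 (0.0785).

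Klf11, on chromosome 12 from 24651274 to 24662789 (plus strand), had 1.96, 2.04 and 2.29 FPKM in Control mice and 3.15, 3.3 and 2.88 FPKM in 6 h mice. It rose at that time (0.41 ± 0.095, adjusted p = 0.0203), a call that was lost without Control replicate 1 (0.0865), 2 (0.0765) or 3 (0.0517). Its mice also lay above Control after 10 min (2.87 to 3.54 FPKM) and 1 h (2.6 to 3.33), with adjusted p = 0.109 and 0.208. The 24 h and 72 h mice overlapped Control, and at 72 h quantile normalization called Klf11 lower (-0.36, adjusted p = 0.0305) where the value on FPKM as deposited was 0.21 (adjusted p = 0.171).

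Of 12 genes of the TGF-beta route, all tested, 0 were called at 10 min, 2 were higher at 1 h, 6 higher and 1 lower at 6 h, 6 higher in 24 h mice and 11 higher in 72 h mice, with a median of 1.43 at the last time (0.29 over all genes). The share of all genes called higher grew over the same times, from 0.248% and 0.669% to 11.6%, 26.2% and 53.1%. With quantile normalization 4 of the list were higher at 24 h and 8 at 72 h. Smad7, the inhibitor that TGF-beta induces against its own signal, rose at 1 h from 23.8 to 39.1 FPKM (0.69 ± 0.11, adjusted p = 0.0419). The ligand Tgfb3 and the receptor Tgfbr1 rose at 72 h by 2.21 and 1.95 on the log2 scale. Fibroblast markers (8 genes, none at 0) summed to between 384 and 443 FPKM in Control and between 3502 and 4104 FPKM at 72 h, where 8 of 8 were called higher, and their part in these rises was not tested.

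Klf9 and Klf15 had the largest falls of the 9 members against Control. Klf9, on chromosome 19 from 23141226 to 23168134 (plus strand), had 59.3, 80.7 and 67.8 FPKM in Control mice, 80.8, 80.7 and 78 FPKM after 10 min and 101, 106 and 75.3 FPKM after 1 h. It stood at 78.3, 61.8 and 90.0 FPKM in 6 h mice, at 60.2, 39.4 and 36.1 in 24 h mice and at 26.3, 23.4 and 23.8 in 72 h mice. All 72 h mice lay below all Control mice. Their mean was 2.83 times lower (log2 fold change -1.45 ± 0.11, adjusted p = 4.12e-06), while the fall of 24 h was -0.63 ± 0.21 (adjusted p = 0.0491), with 1 mouse inside the Control range. Klf9 fell from 24 h to 72 h (-0.82 ± 0.19, adjusted p = 0.0107). Between 6 h and 24 h the value was -0.77 ± 0.22 (adjusted p = 0.0559), called in 1 fit of all 18 mice (0.00308). The 24 h call against Control was lost without the filter (adjusted p = 0.0809), without a variance trend (0.0531), without Control replicate 1, 2 or 3 (0.0804, 0.153 and 0.116) and without 24 h replicate 2 (0.122) or 3 (0.0968).

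Klf15, on chromosome 6 from 90462576 to 90475238 (plus strand), had 20.3, 25.8 and 22.9 FPKM in Control mice, 27.8, 21.9 and 17.2 FPKM after 10 min and 22.2, 34.1 and 20.8 FPKM after 1 h. Mice taken at 6 h had 14.3, 23.4 and 23.7 FPKM, those of 24 h 23.8, 13.8 and 10.6 and those of 72 h 6.58, 4.34 and 5.41. Up to 24 h each group overlapped Control, and at 72 h none of the mice did. The fall of 72 h was 4.23-fold in mean FPKM (log2 fold change -1.91 ± 0.14, adjusted p = 2.96e-06), and that from 24 h to 72 h was -1.35 ± 0.28 (adjusted p = 0.00692). The 24 h value was -0.56 ± 0.27 (adjusted p = 0.132), and -0.87 without 24 h replicate 1, when it was called (0.00930).

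Cardiomyocyte markers fell over the same time. The 8 genes summed to between 34611 and 44514 FPKM at 24 h, where 5 were called lower (3 with quantile normalization) beside 11.4% of all genes. At 72 h they summed to between 20429 and 25375 FPKM, and 8 were called lower (6 with quantile normalization) beside 24.2% of all genes. Per 1000 FPKM of these markers, Klf9 had 1.0, 1.39 and 1.22 FPKM in Control mice and 1.04, 1.15 and 1.15 in 72 h mice, within the Control range. Klf15 had 0.342, 0.445 and 0.411 and then 0.259, 0.212 and 0.262, below Control in 3 of 3 mice. The ratio of Klf13 ran from 0.37 to 0.455 in Control and from 0.912 to 1.25 at 72 h. Its own mean was 23.6 FPKM in Control and 23.9 FPKM at 72 h, so this ratio rose because the marker sum fell. These ratios are descriptions, with no test.

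**Figure D4:**
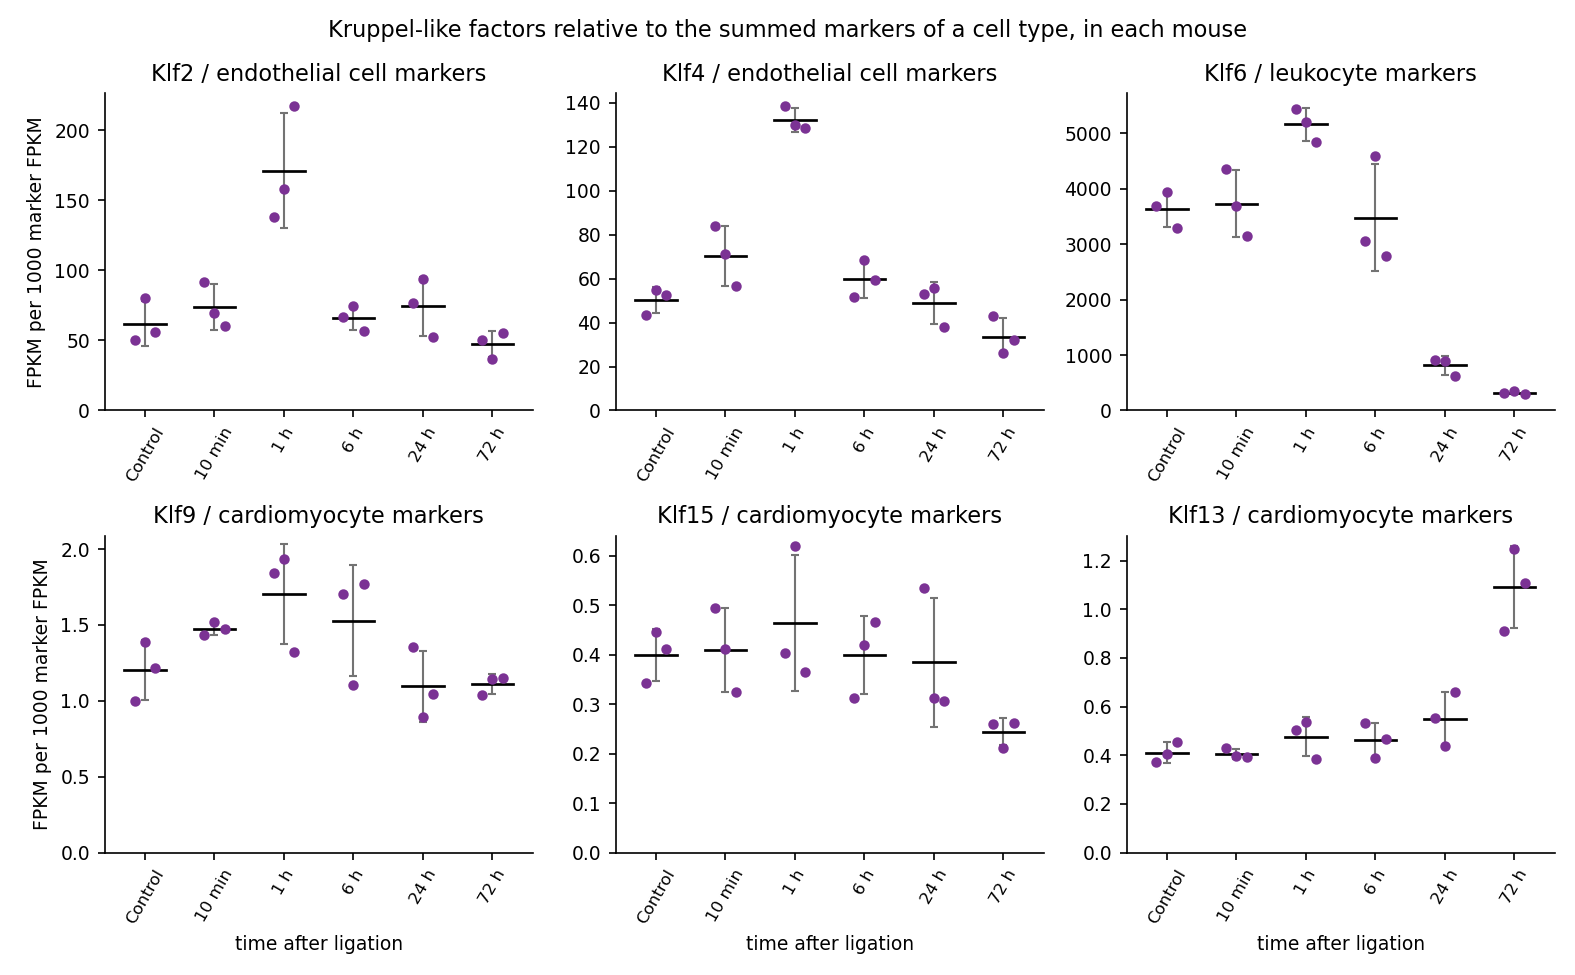
FPKM of 6 members per 1000 FPKM of summed cell type markers, in each of 18 mice by group (linear axes from 0; points are mice, lines means, bars SD, n = 3). Klf2 and Klf4 over endothelial markers are highest at 1 h, Klf9 over cardiomyocyte markers at 72 h lies within the Control range, and Klf15 lies below it.

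Genes that KLF15 activates were called lower from 6 h on. Of 6, 0 were called at 10 min or 1 h, 3 were lower in 6 h mice, 5 in 24 h mice and 6 in 72 h mice. The median was -1.78 at the last time (0.29 over all genes). With median-of-ratios scaling 2 were lower at 6 h. Of all genes 16.8% were called lower at 6 h, 11.4% at 24 h and 24.2% at 72 h. Kcnip2, a subunit of the potassium channel that shapes repolarization, had 68.3, 67.2 and 71.3 FPKM in Control mice, 50.4, 61.5 and 43.9 FPKM in 6 h mice, 26, 19 and 11 FPKM in 24 h mice and 13.9, 8.39 and 11.6 FPKM in 72 h mice. None of these groups overlapped Control, and the log2 fold changes were -0.41 ± 0.12, -1.91 ± 0.27 and -2.53 ± 0.15 (adjusted p = 0.0395, 0.00515 and 9.5e-07). Slc2a4, the insulin-responsive glucose transporter, had log2 fold changes of -0.51, -1.13 and -1.93 at these times (adjusted p = 0.0205, 0.0131 and 1.17e-06). Prodh, which starts proline breakdown, went from a mean of 84.2 to 23.7 FPKM by 72 h (-1.79 ± 0.079). Cardiomyocytes express these genes, and the part of the marker fall in theirs was not tested.

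Klf9, Klf15 and Klf10 are also known as genes whose level follows glucocorticoid hormone or the time of day. Of 6 glucocorticoid-responsive genes 0 were called at 10 min, 1 was higher at 1 h, 3 higher and 1 lower at 6 h, 2 higher and 1 lower in 24 h mice, and 1 higher and 4 lower in 72 h mice. Median-of-ratios scaling and quantile normalization each gave 4 higher at 6 h and 5 lower at 72 h. Beside these, 0.669%, 11.6%, 26.2% and 53.1% of all genes were called higher at the 4 times from 1 h on. Those called lower were 0.0526%, 16.8%, 11.4% and 24.2%. Fkbp5, a feedback regulator of the glucocorticoid receptor, went from a mean of 15.1 FPKM in Control to 134 FPKM at 6 h (3.08 ± 0.16, adjusted p = 0.000150) and 31 FPKM at 72 h (1.01 ± 0.13). Zbtb16, a zinc finger repressor, rose at 6 h (1.45 ± 0.17) and fell by 72 h (-2.0 ± 0.17), and the kinase Sgk1 rose at 1 h (1.35 ± 0.096, adjusted p = 0.000493). Klf9 and Klf15 were called at neither of these early times, with values of 0.43 ± 0.15 and 0.12 ± 0.18 at 1 h and 0.14 ± 0.16 and -0.19 ± 0.19 at 6 h.

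Of 13 clock genes, 2 were called higher and 2 lower as early as 10 min, 0 at 1 h, and 3 higher and 5 lower at 6 h. In 24 h mice 1 was higher and 7 lower, and in 72 h mice 3 higher and 10 lower. Of all genes 0.248% were called higher at 10 min, 11.6% at 6 h, 26.2% at 24 h and 53.1% at 72 h. The shares called lower were 0.0978%, 16.8%, 11.4% and 24.2%. Arntl, which encodes the partner of CLOCK on the CACGTG box, had 0.495, 0.344 and 0.327 FPKM in Control mice, 4.56, 2.67 and 3.34 FPKM after 10 min, 0.964, 0.358 and 0.479 FPKM after 1 h and 10.8, 10.3 and 9.2 FPKM after 72 h. All mice of 10 min and 72 h lay above all Control mice, with log2 fold changes of 1.68 ± 0.15 and 3.0 ± 0.093 (adjusted p = 0.0142 and 3.43e-08). Dbp, a target of that pair, had 91.5, 88.9 and 86.5 FPKM in Control mice and 3.78, 2.74 and 3.52 FPKM after 72 h (-4.38 ± 0.095, adjusted p = 1.11e-08). The hour at which tissue was taken is not given in the sources used here, so time after ligation and time of day cannot be told apart.

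Klf3 and Klf13 were not called in any of the 9 comparisons on FPKM as deposited. Klf3, on chromosome 5 from 64803388 to 64832901 (plus strand), ranged from 6.81 to 11.7 FPKM over the 18 mice, with values against Control from -0.078 at 10 min to 0.24 at 1 h, and 3.59% of its exon bases are shared with the gene Gm20033 on the other strand. Klf13, on chromosome 7 from 63886351 to 63938915 (minus strand), ranged from 19.4 to 29.5 FPKM. In 72 h mice it had 23.2, 25.5 and 22.9 FPKM against 22, 23.6 and 25.4 in Control, a log2 fold change of 0.013 ± 0.076 (adjusted p = 0.886) that turned to -0.29 with median-of-ratios scaling (adjusted p = 0.00515) and with quantile normalization (0.00555). Klf5, on chromosome 14 and known from gut epithelium and injured vessel wall, had at most 0.0298 FPKM in Control and at most 0.223 FPKM in any mouse, and was not tested.

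Of 7 genes of the Sin3-HDAC and CtBP corepressors, which several of these factors recruit, 0 were called at 10 min or 1 h, 1 was higher and 1 lower at 6 h, 2 were higher in 24 h mice and 5 higher in 72 h mice. With median-of-ratios scaling the last count was 3 higher and 2 lower, and with quantile normalization 2 higher and 0 lower. The deacetylase Hdac1 went from a mean of 12.3 to 33.3 FPKM (1.36 ± 0.085), and Sap30, a Sin3 subunit, from 7.08 to 14.7 (0.96 ± 0.096). Of 16 other genes of the Klf and Sp family 7 were tested, and 0 were called at 10 min or 1 h. At 6 h 2 were higher and 1 lower, and in 72 h mice 4 were higher and 2 lower (3 and 3 with median-of-ratios scaling). Beside both lists, 11.6%, 26.2% and 53.1% of all genes were called higher at 6 h, 24 h and 72 h. Those called lower were 16.8%, 11.4% and 24.2%. Klf16, a repressor, had 2.02, 1.81 and 2.31 FPKM in Control mice, 4.63, 3.72 and 3.06 FPKM in 6 h mice and 4.97, 5.01 and 5.53 FPKM in 72 h mice, with no overlap at either time (0.65 ± 0.14 and 1.02 ± 0.091, adjusted p = 0.0156 and 1.14e-05). Klf12, also a repressor, fell at 6 h (-0.58 ± 0.17, adjusted p = 0.0397) and at 72 h (-0.64 ± 0.090, adjusted p = 0.000194).

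Summed over the 10 members, the family made up 249, 306 and 289 FPKM in the Control mice and 367, 319.5 and 311 FPKM after 10 min. The 1 h mice had 491, 507 and 497 FPKM, all above Control. The 6 h mice had 502, 369.7 and 382 FPKM, those of 24 h 305, 294 and 314 and those of 72 h 245, 244 and 239, the last all below Control. Klf2 and Klf4 together held 29% ± 1.86 of the sum in Control, 44.2% ± 4.96 at 1 h and 24.3% ± 3.62 at 72 h (SD, n = 3). Klf9 and Klf15 together held 32.7% ± 1.81 in Control and 12.4% ± 1.04 at 72 h, and Klf6 alone 25% ± 2.74 and 44.7% ± 3.58. The shares of a sum move together, so a larger share of one member lowers those of the rest.

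**Figure D5:**
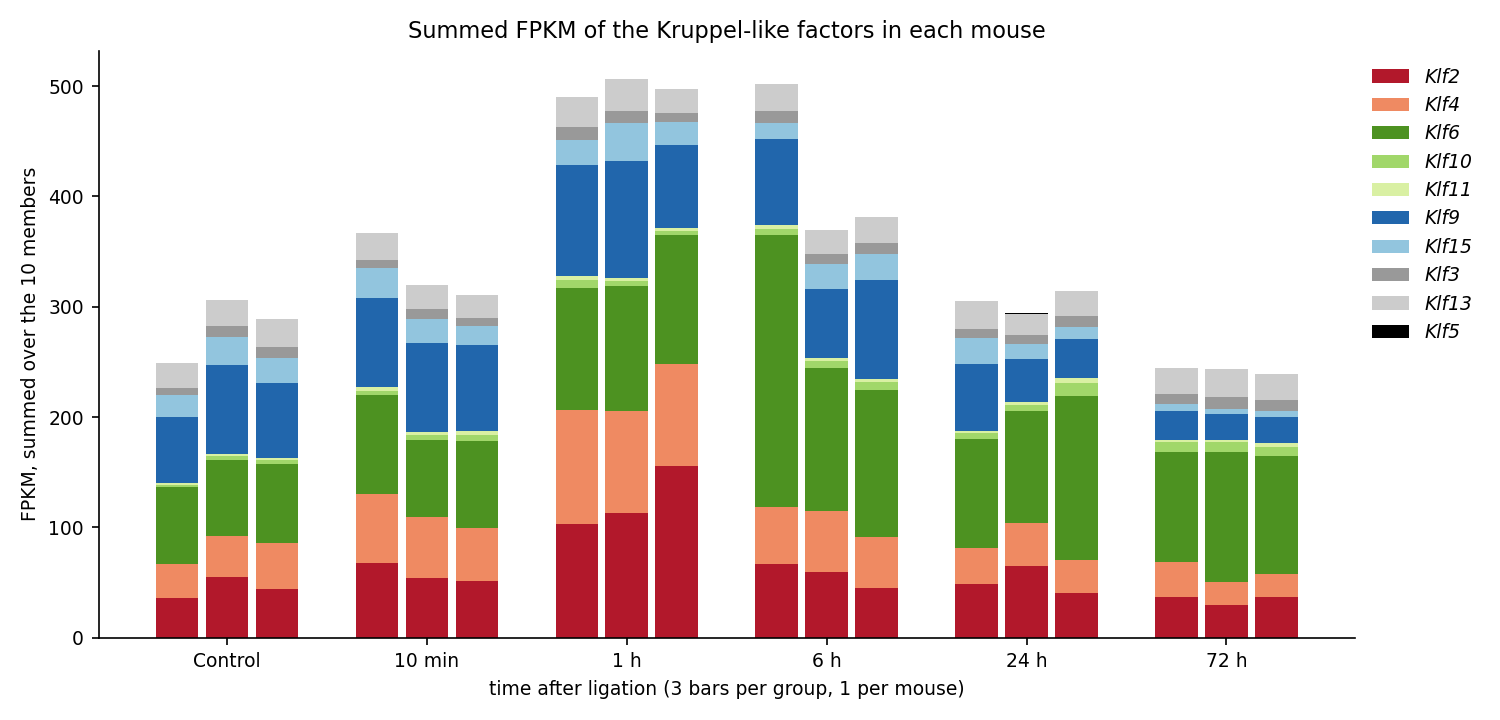
FPKM of the 10 members stacked in each mouse (1 bar per mouse, 3 per group, axis from 0). The 3 mice of 1 h reach between 491 and 507 FPKM, those of 72 h stay between 239 and 245 FPKM, and the 6 h mouse at 502 FPKM is the one with the highest Klf6.

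The genes whose 6 group means ran most like those of a member were found among 12658 named genes, after each gene's own mean over the groups had been taken away. Likeness is the root mean square difference in log2(FPKM + 1) over the 6 groups, and members whose group means spanned over 1 on that scale were compared. Klf2 ran most like Ddit4 (0.24), Sgk1 (0.28) and Rhob (0.28), and Klf4 like Arl4d (0.24), Aqp4 (0.26) and Glt28d2 (0.26). The nearest to Klf6 were Slc45a3 (0.085), Snora61 (0.11) and Trib1 (0.12), to Klf9 Vwa8, Dusp18 and Tmem82 (0.11 each), and to Klf10 Sorl1 (0.11), Nupl1 (0.12) and Jdp2 (0.13). The nearest profiles of all were those of Acaa2 (0.062), Fbp2 (0.066) and Acacb (0.073) to Klf15. Acaa2, the thiolase of mitochondrial fatty acid oxidation, had mean FPKM of 151 in Control, 152 at 1 h, 132 in 6 h mice and 42.7 in 72 h mice.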

How the data were processed

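The members and the gene lists were chosen with earlier results of these data known. Per the labels and the methods of the study, the authors made NEBNext Ultra libraries (strand not stated), trimmed reads with cutadapt 1.18, mapped them to mm10 with HISAT2 2.1.0 and estimated FPKM with StringTie 1.3.4d. The deposited table gives these FPKM per gene symbol and mouse, without averaging. The annotation behind them is not given in the sources used here. Column headings matched the sample titles but for misspelt ones of the 1 h mice and of 6 h replicate 2, each assigned to the only title it resembles. Read counts are not part of it, the depth is unknown, and precision comes from the spread of 3 mice, whose labels do not say more of their litters or cages. No pair of mice shared more than 0.15% of their values. Spreadsheet conversion had turned 25 symbols into dates.

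Genes reaching an FPKM of 1 in some mouse (13333 of 24419) were tested as log2(FPKM + 1), a scale that understates changes of low genes. limma 3.58.1 in R 4.3.3 was used (lmFit, eBayes with a variance trend, two-sided, Benjamini-Hochberg adjustment over all genes tested). Each of the 9 comparisons used its own 6 mice. An exact permutation test of 3 against 3 cannot give a p below 0.1, so none is reported. Alternatives were a pseudocount of 0.1, no filter, a mean FPKM of at least 1, quantile normalization, median-of-ratios scaling, a common FPKM sum, all 18 mice in 1 fit, the replicate number as a block, no variance trend, a ratio of mean FPKM over 2 added to the call, and each mouse left out in turn. Named genes were the 10 members, up to 3 called genes of largest change per list and comparison, and the 3 genes of nearest profile for each member whose group means spanned over 1, apart from 1 gene not reported here. The steps were tested on simulated data. Gene positions and exon overlaps come from GENCODE release M21, promoters from RefSeq, where both strands were searched and a palindrome counted once. Tables and plots were made with Python 3.11.15, numpy 2.4.6, pandas 2.3.3, scipy 1.17.1 and matplotlib 3.10.9.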

Additional observations from a re-analysis of the deposited data

Results flagged for a closer look

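Consecutive times after ligation differed for 4 of the members, by the limma test of the difference itself. Klf2 rose from 10 min to 1 h (log2 fold change 1.07), fell from 1 h to 6 h (-1.10) and fell from 24 h to 72 h (-0.55). Klf4 rose from 10 min to 1 h (0.79), fell from 1 h to 6 h (-0.90) and fell from 6 h to 24 h (-0.59). From 24 h to 72 h Klf9 fell (-0.82) and Klf15 fell (-1.35).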

How the results depend on the processing

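Of the member values called, 190 kept their direction and call under another scaling, filter or fit with all mice and 17 lost the call, and with 1 mouse left out 100 did and 38 lost it. This tally leaves out the ratio of mean FPKM, which only the counts below take in. None reversed. Of those not called, 15 changed sign under another setting and 24 with 1 mouse left out, while 9 and 8 kept their sign and became called. Klf4 from 24 h to 72 h (-0.46, limma adjusted p = 0.0747) was among these. It was called with median-of-ratios scaling (0.0364), with quantile normalization (0.0468) and in 1 fit of all 18 mice (0.0165). The number of members called was 2, 2, 1, 3, 1, 1, 0 and 1 for 1 h, 6 h, 24 h and 72 h against Control and for 1 h against 10 min, 6 h against 1 h, 24 h against 6 h and 72 h against 24 h when a ratio of mean FPKM over 2 was also asked. Without a filter on low FPKM it was 1 for 24 h against Control and 0 for 1 h against 10 min, and without a variance trend 1 for the latter. It was 8 for 72 h against Control with quantile normalization and 7 with median-of-ratios scaling, and 2 for 24 h against 6 h in 1 fit of all 18 mice. With the replicate number as a block it was 1 for 1 h against 10 min and 0 for 24 h against 6 h, and the block also ended the calls of Klf11 at 6 h (adjusted p = 0.0588), Klf9 at 24 h (0.0738) and Klf2 between 24 h and 72 h (0.0735). Over all genes, the block left 1 called from 6 h to 24 h, against 1664 higher and 258 lower without it. The numbers were taken as names. Deviations of same-numbered mice correlated over genes at -0.33 to 0.41, with every pair over 0.1 in no comparison. Deviations from a mean of 3 mice sum to 0, so these correlations cannot decide whether the numbers mark a batch. For 1 h against 10 min all 3 correlations were positive (0.196, 0.090 and 0.148). There the block ended the limma call of Klf2 (adjusted p = 0.101), and whether same-numbered mice shared a batch was not tested. With 1 mouse left out the counts ran 2 to 3 (1 h), 2 to 4 (6 h), 0 to 4 (24 h, 0 without any 1 Control mouse), 5 to 6 (72 h), 0 to 3 (1 h against 10 min), 2 to 3 (6 h against 1 h), 0 to 1 (24 h against 6 h) and 2 to 5 (72 h against 24 h, the last without 24 h replicate 3). Median-of-ratios scaling reversed Klf13 at 6 h (0.077), Klf3 between 1 h and 6 h (0.031), Klf3 at 24 h (-0.11) and 72 h (-0.088), Klf11 (-0.011) and Klf13 (-0.29, then called lower) at 72 h, Klf10 between 6 h and 24 h (-0.14) and Klf13 between 24 h and 72 h (-0.059). Quantile normalization reversed Klf3 at 24 h (-0.19) and 72 h (-0.23), Klf11 (-0.36) and Klf13 (-0.29) at 72 h, both then called lower, Klf10 between 6 h and 24 h (-0.17), and Klf13 (-0.032) and Klf3 (-0.042) between 24 h and 72 h. With 1 mouse left out, log2 fold changes that crossed 0 had these ranges. Klf15 ran -0.23 to 0.11 (10 min), -0.090 to 0.25 (1 h), -0.31 to 0.039 (6 h) and -0.028 to 0.35 (1 h against 10 min). Klf13 ran -0.072 to 0.028 (6 h), -0.16 to 0.0048 (24 h), -0.037 to 0.063 (72 h) and -0.14 to 0.027 (24 h against 6 h). Klf2 ran -0.0031 to 0.33 (24 h). Klf3 ran -0.12 to 0.087 (24 h) and -0.17 to 0.045 (6 h against 1 h). Klf10 ran -0.10 to 0.25 (1 h against 10 min) and -0.29 to 0.27 (24 h against 6 h). Klf11 ran -0.12 to 0.0080 (1 h against 10 min), -0.028 to 0.10 (6 h against 1 h), -0.28 to 0.019 (24 h against 6 h) and -0.23 to 0.074 (72 h against 24 h). Klf6 ran -0.19 to 0.10 (72 h against 24 h). The cause of these changes was not tested. The table holds no counts, so the depth behind each value is unknown.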
